A study of Homo sapiens with 12 samples.

Results

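Ribosome-bound RNA was set against total RNA, gene by gene, in human embryonic stem cells (ESC) of the established line HUES8. The comparison used 6 of the 12 libraries of the study, 3 of ribosome-bound RNA and 3 of total RNA that had been depleted of rRNA. Both groups were labelled wild type, and the cells were grown on Matrigel in mTeSR1 medium without neural induction. The other 6 libraries came from neural progenitor cells (NPC) made from the same line by 7 days of dual SMAD inhibition with 2.5 uM SB431542 and 0.05 uM LDN193189, the former withdrawn for the last 2 days. They are used here only where the ratio in NPC is set beside that in ESC. The labels do not say whether the ribosome-bound and the total RNA came from the same cultures, nor how ribosomes were isolated, and HUES8 is a single line. The p-values therefore measure the spread between these libraries, which may be technical.

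In a growing cell most mRNAs of the cytoplasm are loaded with ribosomes, while mRNAs held in the nucleus, stored with repressor proteins or waiting for splicing are present in total RNA and not on ribosomes. Long noncoding RNAs (lncRNAs) divide in the same way: some stay at their site of transcription, and others leave the nucleus and meet ribosomes. This ratio is a relative quantity, because each library is scaled to its own total. A ratio above 1 says that a gene takes a larger part of the ribosome-bound library than of the RNA library, and not that its mRNA is translated faster. With bulk samples, fewer cells of a type and less RNA per cell cannot be told apart.

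Levels are given as CPM, counts per 1000000 counts of the scaled library, and ratios as log2 of ribosome-bound over total RNA with the standard error (SE) of the fit. Genes with an adjusted p under 0.05 (edgeR's quasi-likelihood test, Benjamini-Hochberg adjusted over all genes tested) and a ratio of at least 2-fold are called ribosome-rich or ribosome-poor. RNA libraries held 19529738 to 26028174 counts and ribosome-bound libraries 2422756 to 3606539. A gene with 0 counts could still have been present at 3 counts, or 0.101 to 0.137 CPM in an RNA library and 0.940 to 1.45 CPM in a ribosome-bound library. RNA library 3 and ribosome-bound library 2 stood apart from their group. Over genes, which do not replicate one another, RNA library 3 correlated in log2 CPM with the other RNA libraries at 0.976 and 0.970, against 0.997 between those, and ribosome-bound library 2 correlated at 0.947 and 0.955 against 0.976. Values without both libraries are given wherever they change a statement.

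Cell type markers did not behave alike in the 2 assays. Of 12 markers of pluripotent stem cells all were detected in every library. In ribosome-bound RNA 8 of them were lower and 2, SOX2 and L1TD1, higher. The 12 markers had a summed level of 11414 to 12557 CPM in RNA and 3115 to 4800 CPM in ribosome-bound RNA. Against this, all 8 markers of mesoderm and endoderm (TBXT, MIXL1, EOMES, GATA4, GATA6, SOX17, FOXA2 and CER1) were higher in ribosome-bound RNA, where 27.1% of all genes tested were higher. They had a summed level of 12.2 to 12.99 CPM in RNA and 823 to 1076 CPM in ribosome-bound RNA. Most of the ribosome-bound sum was CER1, at 521, 752 and 555 CPM, followed by MIXL1, at 170, 253 and 171 CPM. The sum therefore mainly reports CER1. TBXT, GATA6, SOX17 and FOXA2 had means of 0.504, 0.297, 0.180 and 0.656 CPM in RNA. That was too low to pass the filter on low counts there, so they were tested through ribosome-bound RNA. Their calls are no support for a direction. For 7 of the 8 every ribosome-bound library lay above every RNA library, as it did for 28.9% of all genes. The exception was GATA4, an endoderm and heart transcription factor, whose ribosome-bound level was 0.969 CPM in library 2 against 11.6 and 10.3 CPM in the others. Of the 4 neural progenitor markers tested, OTX2 and PAX6 were higher in ribosome-bound RNA. PAX6 had a mean of 0.609 CPM in RNA and was tested through ribosome-bound RNA as well. Neuron markers summed to 19.5 to 21.8 CPM in RNA and 92.6 to 175 CPM in ribosome-bound RNA, with no overlap. Most of the ribosome-bound sum was TUBB3, at 152, 73.7 and 129 CPM, so the sum mainly reports that gene. Of the 4 neuron markers tested, TUBB3 (4.93 ± 0.38) and STMN2 (1.54 ± 0.35) were higher and DCX (−1.81 ± 0.56) lower. Trophoblast and fibroblast markers had sums that overlapped between the assays, 56.5 to 66.1 against 43.1 to 77.8 CPM and 308 to 407 against 354 to 616 CPM. The part of these marker differences in the ratios below was not tested.

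**Figure D1:**
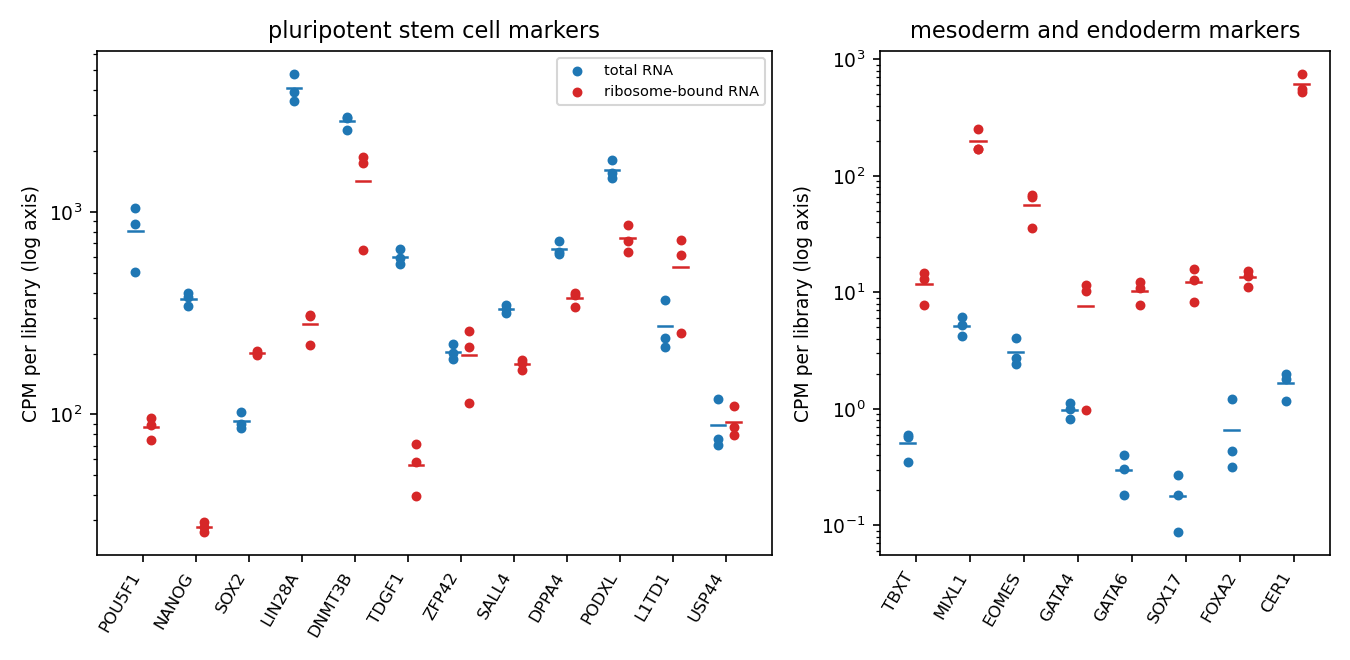
CPM per library (log axis) of 12 pluripotency markers and 8 mesoderm and endoderm markers. Points are the 3 libraries of each assay and bars their means. For CER1 the RNA libraries sit between 1.17 and 2.00 CPM and the ribosome-bound libraries between 521 and 752 CPM. POU5F1, NANOG, LIN28A and TDGF1 are higher in every RNA library, whereas SOX2 is higher in every ribosome-bound library.

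A total of 15727 genes were tested. Of these 4266 (27.1%) were higher and 5427 (34.5%) lower in ribosome-bound RNA. Ribosome-rich genes numbered 3500 (22.3%) and ribosome-poor genes 4665 (29.7%). The median log2 ratio was −0.20, with quartiles of −1.36 and 0.88. Scaling by total counts alone shifted this median to −0.57 and moved the split to 3256 higher and 6818 lower genes, so a ratio is best read against the median of all genes. Only 10300 genes passed a filter on low counts set within each assay, which asks for a higher CPM in the smaller ribosome-bound libraries. The other 5427 did not, and genes that are high in a single assay are favoured among them. Counts of calls among such genes are no support for a direction. Among the 10300 there were 2200 ribosome-rich and 2461 ribosome-poor genes. Of 13265 protein-coding genes tested, 2895 were ribosome-rich, 3339 ribosome-poor and 5535 not past the threshold, with a median of −0.10.

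**Figure D2:**
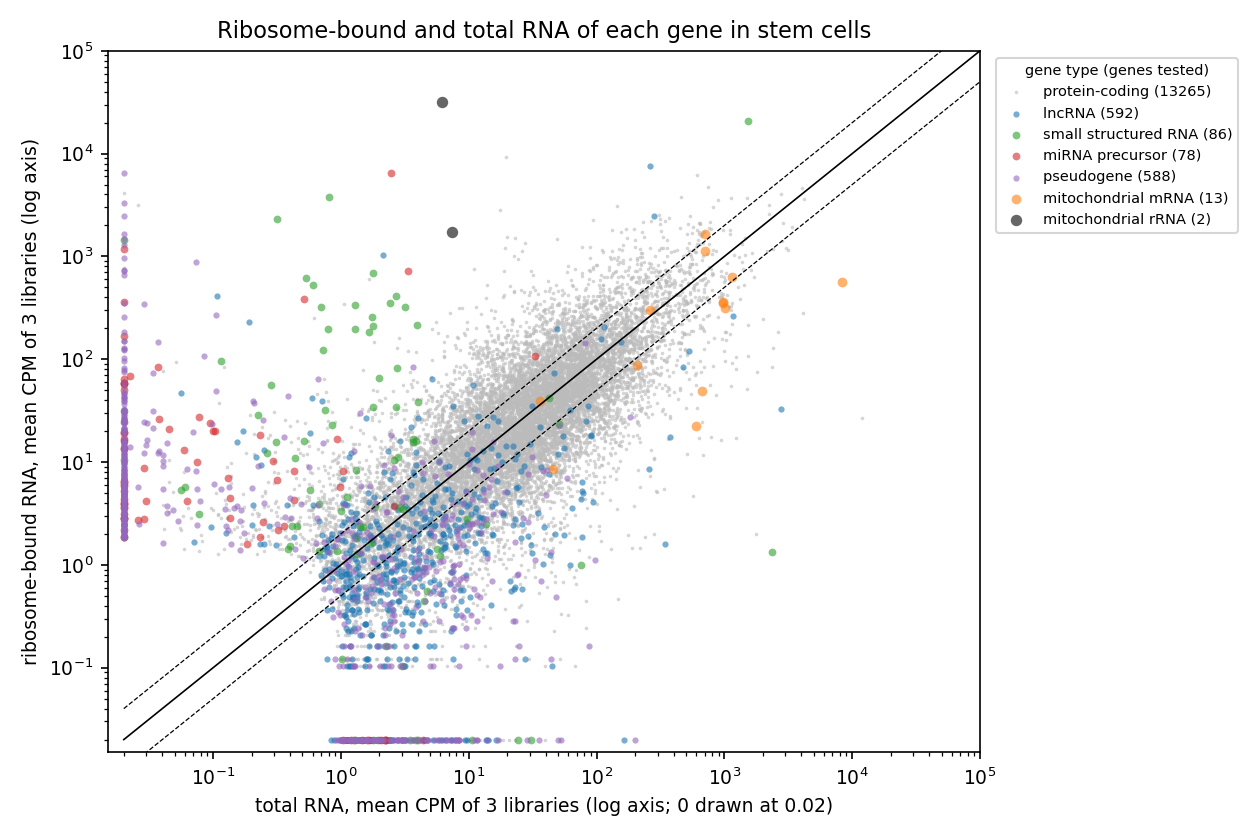
Mean CPM in total RNA against mean CPM in ribosome-bound RNA for the genes tested, on log axes, coloured by RefSeq gene type. The solid line marks equal levels and the dashed lines a 2-fold difference, and a level of 0 is drawn at 0.02. Protein-coding genes spread around the line with a median log2 ratio of −0.10, while 67 of 78 miRNA precursors and both mitochondrial rRNAs lie above the upper dashed line.

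The gene types took different shares of the libraries. Protein-coding genes took 95.2% ± 0.242 of counts in RNA and 88.3% ± 2.01 in ribosome-bound RNA (SD, n = 3). Structured RNAs took a larger share of the ribosome-bound libraries. Mitochondrial rRNA, the rRNA of the organelle's own ribosomes, took 0.00127%, 0.00194% and 0.00138% of the RNA libraries and 1.80%, 4.69% and 2.30% of the ribosome-bound libraries. The shares in RNA and in ribosome-bound RNA were 0.488% ± 0.222 and 2.99% ± 0.237 for small structured RNAs (snoRNAs, snRNAs, Y RNAs, RMRP and the like). They were 0.361% ± 0.00191 and 2.42% ± 0.133 for pseudogenes, and 0.0141% ± 0.000513 and 0.906% ± 0.266 for miRNA precursors. Single genes weighed on these shares. RMRP alone had 17682, 27317 and 17299 CPM in the ribosome-bound libraries, against a snoRNA sum of 10772, 5055 and 9586 CPM. MIR302A had 5125, 9302 and 4952 CPM of a precursor sum of 8275, 14239 and 8579 CPM. For mRNAs of the mitochondrial genome the share in RNA was the larger, 1.77% ± 0.111 against 0.480% ± 0.139. The share of lncRNAs was 1.31% ± 0.0909 and 1.34% ± 0.311. Apart from lncRNAs the groups did not overlap for any of these types, and each gave p = 0.10 in an exact two-sided permutation test, the smallest that 3 against 3 libraries can give (0.11 after adjustment over the gene types). Only the RNA libraries are labelled as rRNA-depleted, so depletion and ribosome binding cannot be told apart for rRNA. For the other structured RNAs, miRNA precursors included, ribosome binding and any difference in library preparation between the assays cannot be told apart either.

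**Figure D3:**
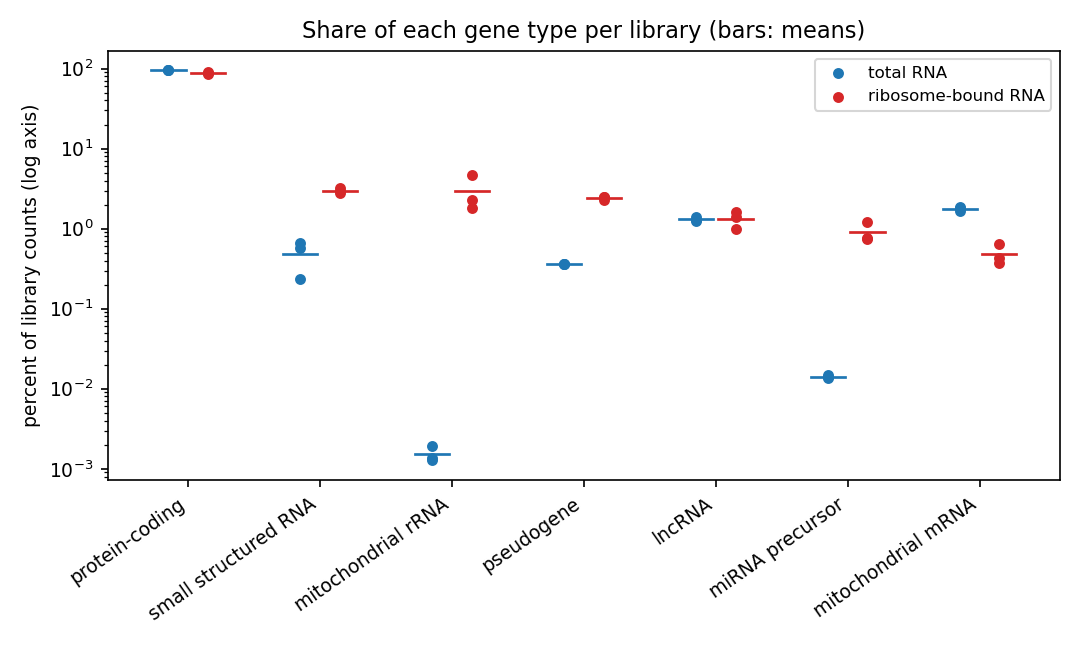
Percent of library counts (log axis) taken by 7 gene types in the 3 total RNA and 3 ribosome-bound libraries. Points are libraries and bars are means. The mitochondrial rRNA of the ribosome-bound libraries sits between 1.80% and 4.69%, far above the RNA libraries, and the lncRNA values of the assays overlap.

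Most of the pseudogene share came from copies of 5S rRNA, an RNA of the large ribosomal subunit made by RNA polymerase III. Their summed level was 7.91, 6.17 and 7.37 CPM in the RNA libraries and 20517, 24779 and 23201 CPM in the ribosome-bound libraries. Of 138 such pseudogenes tested 137 were ribosome-rich, against 22.3% of all genes, and 112 had no count in RNA. Those 112 could be tested only through ribosome-bound RNA, so their direction was set by the filter. Of 588 pseudogenes tested, 34 passed the filter in each assay. These copies are nearly identical to the functional gene, so reads of 5S rRNA may be split among them. MT-RNR2, the large mitochondrial rRNA, stood at 3.83, 8.37 and 6.19 CPM in RNA and at 18532, 52643 and 24791 CPM in ribosome-bound RNA.

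MicroRNAs are shown by sequence because their precursors had a median log2 ratio of 7.72, and because the counted names do not say which arm was read. A miRNA precursor is a hairpin cut to a short mature RNA whose seed, bases 2 to 8, pairs with target mRNAs. The miR-302 cluster is the hallmark miRNA locus of human pluripotent cells. Of 78 precursors tested 67 were ribosome-rich and 10 ribosome-poor, but only 4 passed the filter in each assay. The mature sequences below belong to precursors with a mean of at least 50 CPM in ribosome-bound RNA, a cut chosen after their values were seen. They are credited to RefSeq (GRCh38.p14), with the seed in capitals, and those with a shared seed stand together.
hsa-miR-302a-3p (chr4:112648186-112648208, minus strand): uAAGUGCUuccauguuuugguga
hsa-miR-302b-3p (chr4:112648489-112648511, minus strand): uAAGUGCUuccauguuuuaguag
hsa-miR-302c-3p (chr4:112648366-112648388, minus strand): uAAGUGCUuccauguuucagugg
hsa-miR-93-5p (chr7:100093815-100093837, minus strand): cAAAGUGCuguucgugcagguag
hsa-miR-106b-5p (chr7:100094043-100094063, minus strand): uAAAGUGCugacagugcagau
hsa-miR-99a-5p (chr21:16539101-16539122, plus strand): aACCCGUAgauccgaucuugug
hsa-miR-100-5p (chr11:122152275-122152296, minus strand): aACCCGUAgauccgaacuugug
hsa-miR-183-5p (chr7:129774967-129774988, minus strand): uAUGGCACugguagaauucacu

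MIR302A was counted at 2.35, 2.80 and 2.23 CPM in the RNA libraries and at 5125, 9302 and 4952 CPM in the ribosome-bound libraries. Every ribosome-bound library lay far above every RNA library, with a log2 ratio of 11.35 ± 0.48 (adjusted p = 1.14e-09). Its cluster neighbours shared the seed and not the size of the ratio. MIR302C had means of 3.33 and 713 CPM (7.74 ± 0.34), and MIR302B means of 33.1 and 107 CPM (1.69 ± 0.28). In RNA the order was the reverse, with MIR302B the highest of the 3. MIR302CHG, the host transcript of the cluster, stood at 46.0 ± 3.15 CPM in RNA and 73.0 ± 17.5 CPM in ribosome-bound RNA (SD, n = 3), a log2 ratio of 0.66 ± 0.25 (adjusted p = 0.0310) that missed the threshold without RNA library 1 (0.63, adjusted p = 0.128), without RNA library 2 (0.64, adjusted p = 0.0998) and without ribosome-bound library 2 (0.47, adjusted p = 0.0529).

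MIR183, from a cluster known in sensory cells, had no count in the RNA libraries and 816, 1594 and 1101 CPM in the ribosome-bound libraries, at least 28095-fold higher against 3 counts over the RNA group. MIR99A and MIR100, which share a seed, also had 0 counts in RNA and means of 168 and 59.4 CPM in ribosome-bound RNA. MIR93 had 2 counts in RNA and MIR106B none, with 69.3 and 50.5 CPM in ribosome-bound RNA. The summed level of all precursors was 121 to 130 CPM in RNA and 8275 to 14239 CPM in ribosome-bound RNA, highest in library 2.

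Other small RNAs split in both directions. Of 64 snoRNAs, guides of rRNA modification in the nucleolus, 37 were ribosome-rich and 16 ribosome-poor. Among all genes tested these shares were 22.3% and 29.7%. Only 28 of 86 small structured RNAs tested, snoRNAs included, passed the filter in each assay. RNY1, a Y RNA bound by the Ro protein, stood at 1.04, 0.709 and 0.683 CPM in RNA and at 3109, 4532 and 3616 CPM in ribosome-bound RNA (12.16 ± 0.45, adjusted p = 8.11e-10). It has 16 named pseudogene copies. RMRP, the RNA of a ribonuclease that processes rRNA, was abundant in both, with 1953, 1510 and 1132 CPM in RNA against 17682, 27317 and 17299 CPM in ribosome-bound RNA. RN7SL1, the RNA of the signal recognition particle, went the other way, from 3393, 3097 and 618 CPM to 1.09, 1.94 and 0.940 CPM. It was low in RNA library 3, where the share of small structured RNAs was 0.236% against 0.656% and 0.573% in the others. SNORD3B-1 and SNORD3B-2, copies of the U3 snoRNA, had 0 ribosome-bound counts and were at least 65.6- and 82.2-fold lower. RN7SL1 and these U3 copies did not pass the filter in ribosome-bound RNA and were tested through total RNA. Reads that match several copies of a small RNA may be split or lost, and their part in these ratios was not tested.

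Among 592 lncRNAs tested 69 were ribosome-rich and 329 ribosome-poor, with a median log2 ratio of −1.69. Only 83 of them passed the filter in each assay, and their median was −0.26. All 13 lncRNAs tested of a list of 15 known to stay in the nucleus were lower in ribosome-bound RNA (median −4.57 against −0.20 for all genes). Of these 13, 9 did not pass the filter in each assay. The 4 that passed in each assay had a median of −1.88. MALAT1, a nuclear speckle RNA, stood at 1010, 983 and 1518 CPM in RNA and at 280.4, 299.5 and 209 CPM in ribosome-bound RNA. The assays did not overlap, and the log2 ratio was −2.15 ± 0.29 (adjusted p = 2.30e-05). NEAT1, the scaffold of paraspeckles, stood at 45.9, 39.5 and 48.2 CPM in RNA and had a single ribosome-bound count, 353-fold lower by counts with a 95% interval of 63.3 to 13954 (exact, counting error only). SNHG14, the long transcript of the imprinted Prader-Willi region, fell from 2784, 2474 and 3078 CPM to 32.2, 37.8 and 27.9 CPM (−6.42 ± 0.33). The smallest differences in this list were those of TUG1 (−1.24 ± 0.25) and RMST (−1.61 ± 0.24).

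The lowest lncRNAs outside that list included OIP5-AS1 and NORAD, both known from the cytoplasm. OIP5-AS1, also called cyrano, stood at 144, 135 and 216 CPM in RNA and had no ribosome-bound count, at least 432-fold lower. NORAD, which binds Pumilio proteins, stood at 310, 268 and 447 CPM in RNA and at 1.45, 2.42 and 0.940 CPM in ribosome-bound RNA (−7.81 ± 0.42, adjusted p = 5.28e-09). MIR600HG and FTX followed the same pattern, with means of 27.3 and 61.4 CPM in RNA and of 0.121 and 0.989 CPM in ribosome-bound RNA. OIP5-AS1, NORAD, MIR600HG and FTX were all too low in ribosome-bound RNA to pass the filter there, and were tested through total RNA.

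At the other end stood hosts of snoRNAs. GAS5, whose spliced transcript has a short reading frame and is known to be degraded upon translation, stood at 268, 259 and 260 CPM in RNA and at 9709, 4742 and 8292 CPM in ribosome-bound RNA. The lowest ribosome-bound value was many times the highest RNA value, and the log2 ratio was 4.85 ± 0.36 (adjusted p = 1.18e-07). SNHG1 went likewise from 284 ± 21.5 to 2457 ± 1240 CPM (SD, n = 3). The list of snoRNA hosts as a group was mixed, with 5 of 23 higher, 13 lower and a median of −0.996. SNHG3 was among the lowest, with 257 ± 21.8 CPM in RNA and 8.61 ± 1.97 CPM in ribosome-bound RNA. Reads of a snoRNA inside a host gene can be counted to the host where its exons overlap, and the snoRNAs' part in the hosts' ratios was not tested.

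RNF139-AS1, an antisense transcript, had the largest ratio among lncRNAs by the rule used, with 2.26, 1.59 and 2.59 CPM in RNA and 818, 1117 and 1159 CPM in ribosome-bound RNA. No source used here says whether counting used the strand, and without it reads of antisense partners cannot be told apart. Of 11 genes once annotated as noncoding and since reported to make a small protein, 6 were higher and 4 lower in ribosome-bound RNA. The 4 lower members did not pass the filter in each assay, and with the filter applied in each assay 5 of 6 were higher. C12orf73 (a mitochondrial protein also called BRAWNIN) rose from 5.68 ± 0.783 to 34.96 ± 23.5 CPM (SD, n = 3). MTLN (mitoregulin) had 0.0997 ± 0.0884 CPM in RNA and 3.40 ± 2.66 CPM in ribosome-bound RNA. With 8 counts over the RNA libraries, MTLN did not pass the filter in each assay either, so its call is no support for a direction. TUNAR, a transcript linked to neural differentiation, fell from 32.4 ± 1.61 to 3.98 ± 2.21 CPM. Of 12 lncRNAs of stem cells and HERV-H elements, 3 were higher and 7 lower (median −1.74), and with the filter applied in each assay the 8 left had a median of 0.12. The 3 calls of higher genes were lost without RNA library 1 or 2, and 1 gene was higher without ribosome-bound library 1. LINC01108 was the lowest, with 77.5 ± 4.28 CPM in RNA and 1.85 ± 0.593 CPM in ribosome-bound RNA, where it did not pass the filter.

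TTC23 (chr15:99136323-99251225), a ciliary protein, had the largest ratio among protein-coding genes with at least 1 CPM in RNA and 10 CPM in ribosome-bound RNA, with 18.9, 19.8 and 20.02 CPM in RNA and 9164, 10552 and 8036 CPM in ribosome-bound RNA (8.88 ± 0.38, adjusted p = 1.19e-09). The replicates of each assay lay close together and far from the other assay. ROBO2, a receptor of axon guidance, stood at 16.8, 17.9 and 18.5 CPM against 2044, 3548 and 2967 CPM.

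CER1, a secreted inhibitor of Nodal and BMP and a marker of anterior endoderm, stood at 1.17, 1.79 and 2.00 CPM in RNA and at 521, 752 and 555 CPM in ribosome-bound RNA (8.52 ± 0.38). The other 7 genes named by the rule encode small proteins, most of them known from mitochondria: CHCHD10, TOMM7, TOMM5, SLIRP and TMEM256, with DBI, a binder of acyl-CoA, and ENY2, a subunit of chromatin and mRNA export complexes. TOMM7, a subunit of the import pore of the outer membrane, stood at 21.7, 24.4 and 13.8 CPM in RNA and at 976, 2446 and 1196 CPM in ribosome-bound RNA. The log2 ratios of these 7 ran from 5.72 ± 0.34 for TOMM5 to 6.34 ± 0.47 for CHCHD10. Ribosome-bound library 2 was the highest for all of them.

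Among the lowest protein-coding genes were 3 with no ribosome-bound count. ZNF22, a zinc finger protein, stood at 34.6, 34.1 and 49.1 CPM in RNA and was at least 103-fold lower. UBE2W, a ubiquitin-conjugating enzyme, and DEXI were at least 60.1- and 56.1-fold lower. PSMC1, an ATPase of the proteasome, had 5050 counts in RNA and 1 in ribosome-bound RNA, 543-fold lower by counts with a 95% interval of 97.3 to 21436. SYNJ2BP, a mitochondrial outer membrane protein, had 2868 counts in RNA and 1 in ribosome-bound RNA. ILK, a kinase of integrin adhesions, stood at 153, 159 and 126 CPM in RNA and at 1.09, 0 and 0.313 CPM in ribosome-bound RNA. All of these genes were tested through total RNA, as they did not pass the filter in ribosome-bound RNA.

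The most abundant of the low genes was EEF1A1, the elongation factor that brings aminoacyl-tRNA to the ribosome. It stood at 11776, 11645 and 12055 CPM in RNA and at 25.3, 21.8 and 32.6 CPM in ribosome-bound RNA, 443-fold lower (−8.79 ± 0.40, adjusted p = 1.46e-09). RPS3A, a protein of the small ribosomal subunit, fell from 1643, 1534 and 2105 CPM to 2.17, 1.94 and 1.88 CPM, 878-fold lower. Unlike EEF1A1, RPS3A did not pass the filter in ribosome-bound RNA and was tested through total RNA. Both genes have many pseudogenes named after them, 39 for EEF1A1 and 38 for RPS3A, and PSMC1 has 13. ZNF22, DEXI and ILK have none, and SYNJ2BP has a read-through partner in the table. No source used here says how multiply matching reads were counted.

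Named copies and gene size moved with the ratio. The median log2 ratio was −0.08 in 11770 protein-coding genes without a named pseudogene, −0.18 in 736 genes with 1, −0.02 in 507 genes with 2 to 4, −0.58 in 146 genes with 5 to 9 and −1.73 in 106 genes with 10 or more. Of those 106, 73 were lower and 16 higher. Among genes without named copies, the 111 with a read-through partner had a median of −1.50 against −0.08 for the other 11659. With genes in 5 equal groups by genomic span, from short to long, the medians were 0.64, 0.18, −0.09, −0.32 and −0.61. The part of copies and of size in the ratios of single genes was not tested.

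**Figure D4:**
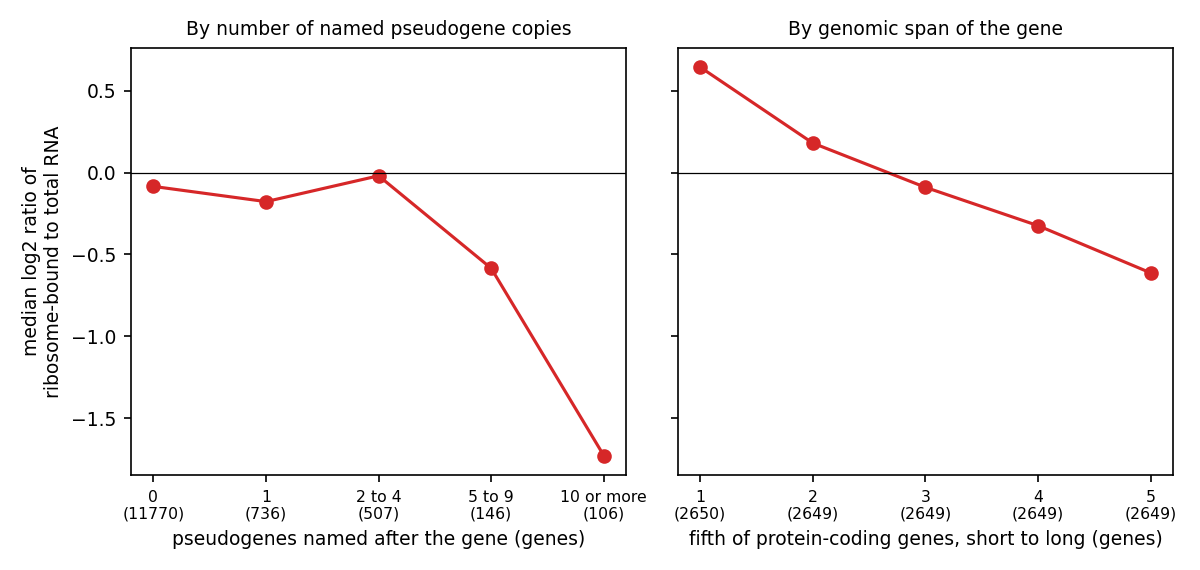
Median log2 ratio of ribosome-bound to total RNA of protein-coding genes, by number of pseudogenes named after the gene (left) and by 5 equal groups of genomic span (right), with the number of genes in brackets. The median falls to −1.73 in genes with 10 or more copies and from 0.64 in the shortest group to −0.61 in the longest.

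Lists of genes that act together are given by counts beside those of all genes (27.1% higher, 34.5% lower, median −0.20). Without RNA library 3 and ribosome-bound library 2 more genes were called, 5317 higher and 6365 lower of 15727, and list counts without these libraries are to be read against that. The plot of ratios by list shows their members.

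**Figure D5:**
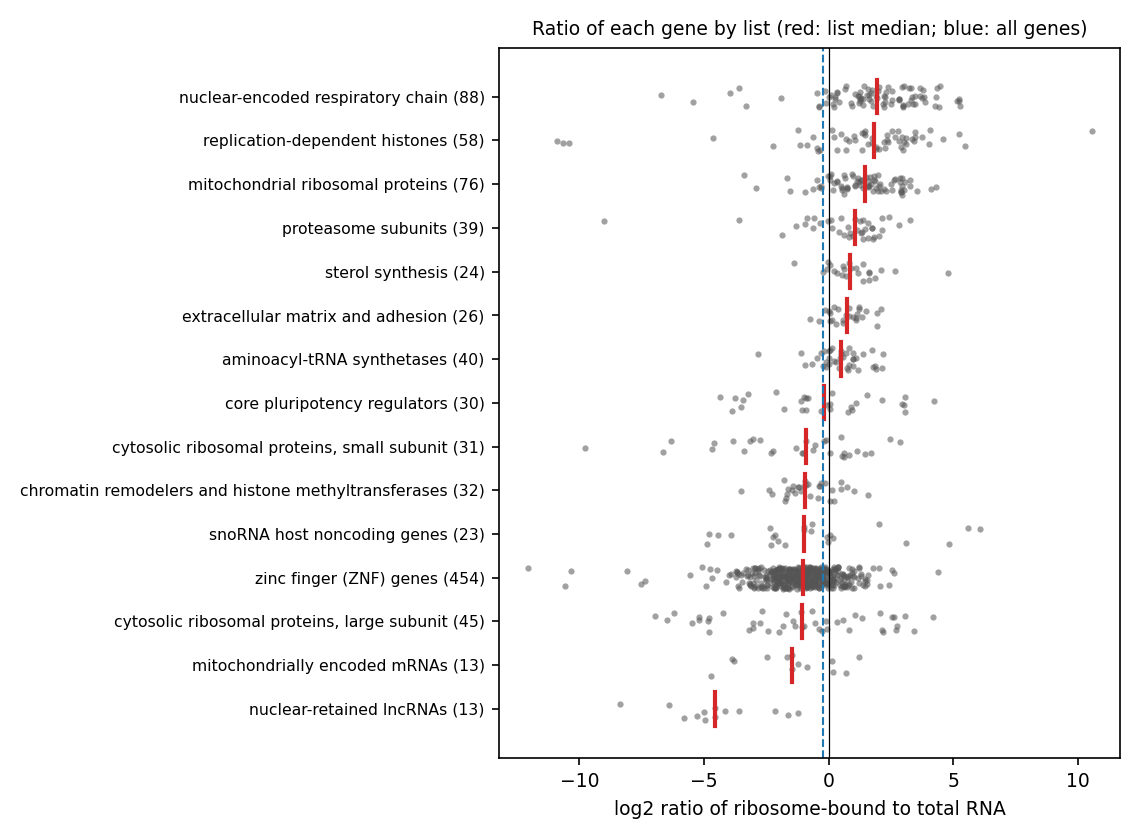
Log2 ratio of ribosome-bound to total RNA of each tested member of 15 lists, with the number of members in brackets. The red bars are list medians and the dashed blue line is the median of all genes, −0.20. Respiratory chain genes have a median of 1.94 and nuclear-retained lncRNAs one of −4.57, or −1.88 in the 4 that passed the filter in each assay.

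Nuclear genes of mitochondrial energy production were mostly higher. Of 88 nuclear genes of the respiratory chain and its assembly, 68 were higher and 6 lower, with a median of 1.94. NDUFB6, a subunit of complex I, stood at 13.6, 11.9 and 16.0 CPM in RNA and at 517, 530 and 531 CPM in ribosome-bound RNA (5.25 ± 0.29, adjusted p = 6.17e-09). NDUFS5, of the same complex, reached 5.26 ± 0.31. UQCR11, a small subunit of complex III, went against the list, with 31.4, 36.7 and 30.6 CPM in RNA and 0.362, 0.969 and 0.940 CPM in ribosome-bound RNA. UQCR11 was tested through total RNA, since it did not pass the filter in ribosome-bound RNA. Of 76 proteins of the mitochondrial ribosome 55 were higher and 6 lower, with a median of 1.45. MRPL52 stood at 14.8, 17.8 and 12.5 CPM against 254, 386 and 254 CPM. Among the members without named copies or a read-through partner, the medians were 1.64 (41 respiratory chain genes) and 1.91 (43 mitochondrial ribosomal proteins). These lists hold many short genes, and the group of shortest genes had a median of 0.64.

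The mRNAs of the mitochondrial genome itself, which are translated by the organelle's own ribosomes, were mostly lower, 9 of 13 with 2 higher and a median of −1.45. MT-CO1, the core of complex IV, stood at 8671, 8849 and 7500 CPM in RNA and at 433, 856 and 395 CPM in ribosome-bound RNA (−3.89 ± 0.37). MT-ND2, of complex I, had the lowest ratio (−4.73 ± 0.28). MT-CYB, the cytochrome of complex III, was higher in every ribosome-bound library, with 738, 764 and 616 CPM against 1406, 2295 and 1222 CPM (1.22 ± 0.30, adjusted p = 0.00274). MT-ND5 was also called higher (0.69 ± 0.27, adjusted p = 0.0403), a call that was lost without RNA library 1, 2 or 3 (adjusted p = 0.137, 0.111 and 0.0720).

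Cytosolic ribosomal proteins, in contrast to their mitochondrial counterparts, were spread over a wide range. Of 45 genes of the large subunit 12 were higher and 25 lower (median −1.07), and of 31 of the small subunit 6 were higher and 17 lower (median −0.91). RPL36 rose from 28.4, 37.8 and 10.1 CPM to 428, 494 and 488 CPM (4.20 ± 0.42), and RPL26 from 26.8 ± 1.13 to 293 ± 40.5 CPM (SD, n = 3). RPL39 fell from 192, 197 and 142 CPM to 3.26, 0.969 and 1.57 CPM (−6.47 ± 0.39), too low in ribosome-bound RNA to pass the filter there. RPLP0, of the stalk of the large subunit, fell from 2687, 2730 and 1622 CPM to 76.0, 92.6 and 82.1 CPM (−4.81 ± 0.33). All of the small subunit genes and all but 1 of the large subunit genes have a named copy or a read-through partner, so these lists cannot be given without them.

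The mRNAs of ribosomal proteins start with a run of pyrimidines, the TOP motif, through which their translation follows growth signals. Start sites are printed for low and high members that carry the run. Some members at either end do not, such as RPL10 (−6.19), RPS26 (−4.69) and RPL27 (2.55). The lines give 10 bases before and 20 from the RefSeq start (GRCh38.p14), with capitals for a run of at least 5 C or T that begins with C within 5 bases of the start.
RPS3A (chr4:151099618-151099647, plus strand): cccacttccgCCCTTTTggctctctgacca
RPL39 (chrX:119791611-119791640, minus strand): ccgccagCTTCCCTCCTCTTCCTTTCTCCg
EEF1A1 (chr6:73521013-73521042, minus strand): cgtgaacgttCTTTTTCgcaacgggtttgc
RPLP0 (chr12:120201092-120201121, minus strand): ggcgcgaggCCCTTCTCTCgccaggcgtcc
RPL36 (chr19:5690285-5690314, plus strand): cggcgccagCCCTTCCgccacggccgtctc
RPL26 (chr17:8383174-8383203, minus strand): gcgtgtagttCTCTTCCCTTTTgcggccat
RPS21 (chr20:62387093-62387122, plus strand): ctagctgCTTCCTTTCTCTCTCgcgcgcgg
RACK1 (chr5:181243887-181243916, minus strand): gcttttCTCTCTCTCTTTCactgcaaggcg

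Such a run was found in 50 of 61 ribosomal protein genes with a start site in the table (82.0%) and in 23.0% of 10836 tested protein-coding genes, against 21.1% of all start sites. The median log2 ratio was −0.96 in ribosomal protein genes with the run and −1.30 in those without. The order was the reverse in the other sets. With and without the run, medians were −0.77 and −0.48 for other TOP mRNAs and −0.18 and −0.07 for protein-coding genes. Of 13 other TOP mRNAs with a start site 11 had the run, so the median without it rests on very few genes. For snoRNA hosts, where 11 of 19 had the run, the medians were −2.01 and −0.46. The search covered the transcribed strand only, and a match is a description of the letters. RACK1, a scaffold protein of the small subunit encoded by a TOP mRNA, stood at 821, 959 and 458 CPM in RNA and at 4777, 4225 and 5275 CPM in ribosome-bound RNA (2.67 ± 0.33, adjusted p = 1.14e-05). EEF1A1, with a run of its own, was the lowest of the same list. Of 20 TOP mRNAs other than ribosomal proteins 7 were higher and 11 lower (median −0.79), and the 5 without copies or a read-through partner had a median of 0.92. Their count of higher members fell to 4 without RNA library 1 or 2.

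Other parts of the protein machinery leaned to the ribosome-bound side. Of 39 proteasome subunits 25 were higher and 6 lower (median 1.06), led by PSMB1, of the catalytic core, at 121, 129 and 87.3 CPM in RNA and 1138, 956 and 1191 CPM in ribosome-bound RNA. Of 40 aminoacyl-tRNA synthetases and partners, which charge tRNAs, 19 were higher and 3 lower, 27 and 5 without the libraries that stood apart, and 9 and 5 with scaling by total counts. Chaperones gave 13 higher and 4 lower of 29. HSPB1, a small heat shock protein, rose from 18.7 ± 11.5 to 422 ± 24.5 CPM (SD, n = 3). Glycolytic enzymes gave 8 and 3 of 21, with LDHB at 45.0, 40.9 and 60.7 CPM in RNA and 1626, 1096 and 1727 CPM in ribosome-bound RNA, and 14 higher and 4 lower without ribosome-bound library 2. Initiation factors were mixed, with 14 higher and 12 lower of 36, 7 and 15 with scaling by total counts, and 9 and 13 with no filter.

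Replication-dependent histone genes, with mRNAs that lack a poly(A) tail, were higher for 40 and lower for 8 of 58 (median 1.83). HIST1H3J stood at 29.2, 29.8 and 8.69 CPM in RNA and at 795, 1298 and 940 CPM in ribosome-bound RNA. HIST1H2AM, with 4 counts over the RNA libraries, reached 105, 96.4 and 81.5 CPM and was tested through ribosome-bound RNA. HIST1H4K and HIST1H2AK had no ribosome-bound count and were at least 48.7- and 40.4-fold lower. Since histone genes are near-identical copies, reads can be split or lost between them, and values of single histone genes are uncertain. Of 12 polyadenylated variants 5 were higher and 2 lower (median 0.30, or −0.06 with scaling by total counts). H2AFX, the variant marked at DNA breaks, was the highest (2.15 ± 0.37). H3F3A, a gene of histone H3.3, was the lowest and did not pass the filter in each assay. It went from 254, 243 and 221 CPM to 1.45, 2.91 and 1.25 CPM (−7.07 ± 0.36). It has 6 named copies.

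Sterol synthesis and matrix genes had more higher than lower members. Of 24 enzymes and regulators of sterol synthesis, made at the endoplasmic reticulum, 14 were higher and 1, HSD17B7, lower, with a median of 0.85. DHCR7, which makes cholesterol in the last step of a branch of the pathway, stood at 150, 154 and 71.8 CPM in RNA and at 617, 1051 and 704 CPM in ribosome-bound RNA. Without the libraries that stood apart 18 were higher and 4 lower. Matrix and adhesion genes gave 13 higher and 1, ITGB5, lower of 26 (median 0.75), with LAMB1, a laminin chain of basement membranes, at 144, 145 and 150 CPM against 513, 801 and 564 CPM. The call of ITGB5 was lost without RNA library 1 or 2 and without ribosome-bound library 1 or 3 (adjusted p of 0.0649 to 0.0914). FN1, fibronectin, was not past the threshold (−0.37 ± 0.24, adjusted p = 0.199).

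Zinc finger genes and chromatin regulators had more lower than higher members. Of 454 genes with a ZNF symbol, most of them zinc finger repressors, 31 were higher and 257 lower (median −1.04). Of these 174 did not pass the filter in each assay, and among the 280 that did 23 were higher and 161 lower. Without the libraries that stood apart, 55 were higher and 263 lower. Of 32 chromatin remodelers and histone methyltransferases 3 were higher and 19 lower (median −0.94). KMT2D, a methyltransferase of enhancers, stood at 439, 434 and 318 CPM in RNA and at 102, 50.9 and 73.0 CPM in ribosome-bound RNA (−2.39 ± 0.30, adjusted p = 1.32e-05). CHD4, of the NuRD complex, fell from 17.0 ± 2.83 to 1.38 ± 1.45 CPM (SD, n = 3). Its 12 ribosome-bound counts were too few for the filter in that assay, so CHD4 was tested through total RNA. EZH2, the enzyme of Polycomb complexes, was among the 3 that were higher, at 49.6, 49.7 and 59.3 CPM against 173, 143 and 165 CPM. Without ribosome-bound library 1 a single member was higher, and without the libraries that stood apart 6 were higher and 20 lower.

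Splicing factors of the SR family, whose mRNAs carry regulated introns, ranged from end to end. SRSF1 fell from 198, 185 and 275 CPM to 0.724, 2.42 and 1.25 CPM (−7.30 ± 0.41). With 11 ribosome-bound counts, SRSF1 did not pass the filter in that assay and was tested through total RNA. SRSF2 fell from 354, 331 and 318 CPM to 5.79, 4.36 and 6.27 CPM (−5.91 ± 0.31). SRSF7 rose from 190, 192 and 222 CPM to 1754, 1025 and 1535 CPM (2.84 ± 0.29). In the whole list of mRNAs with detained or regulated introns 13 of 35 were higher and 10 lower, and its median of 0.28 became −0.08 with scaling by total counts. CLK1, a kinase of SR proteins with a known nuclear intron-retaining form, was higher in ribosome-bound RNA, at 14.9, 13.1 and 20.2 CPM against 31.8, 33.4 and 35.1 CPM (1.06 ± 0.26, adjusted p = 0.00319).

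Core pluripotency genes divided by gene. Of 30 genes 10 were higher and 14 lower, and the median of −0.18 turned to 0.04 without the libraries that stood apart and to 0.14 in the 21 genes without copies or a read-through partner. POU5F1, the central transcription factor of the state, stood at 871, 1048 and 503 CPM in RNA and at 74.9, 96.4 and 88.4 CPM in ribosome-bound RNA (−3.22 ± 0.32, adjusted p = 1.55e-06). NANOG fell from 379, 344 and 398 CPM to 27.9, 26.2 and 29.5 CPM (−3.74 ± 0.26). Both have pseudogenes named after them, 6 and 10. SOX2, their partner, has none and was higher in every ribosome-bound library, at 85.7, 103 and 89.4 CPM against 197, 201 and 205 CPM (1.12 ± 0.23, adjusted p = 8.09e-04).

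The RNA-binding proteins of the let-7 circuit were low. LIN28A, which blocks let-7 maturation, stood at 3895, 3537 and 4818 CPM in RNA and at 310, 221 and 308 CPM in ribosome-bound RNA (−3.87 ± 0.31, adjusted p = 2.20e-07). TRIM71, a let-7 target that represses mRNAs, was the lowest gene of the list and has no named copy, with 1071, 918 and 1362 CPM against 66.6, 42.6 and 55.8 CPM (−4.34 ± 0.31). TDGF1, the Nodal co-receptor, fell 10.7-fold (−3.42 ± 0.29) and has 6 named copies. DNMT3B, the de novo DNA methyltransferase, stood at 2947, 2900 and 2546 CPM against 1862, 649 and 1745 CPM. Its ratio of −0.98 ± 0.36 (adjusted p = 0.0280) missed the threshold without RNA library 1 or 3 (adjusted p = 0.0540 and 0.0582). L1TD1, an RNA-binding protein of LINE-1 origin, was called higher (0.95 ± 0.36, adjusted p = 0.0326), but its ribosome-bound value was 253 CPM in library 2 against 731 and 613 CPM, within the RNA range of 215 to 370 CPM, and the call was lost without RNA library 1 or 2 and without ribosome-bound library 1 or 3 (adjusted p of 0.0636 to 0.138).

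LEFTY2, a feedback inhibitor of Nodal, had the largest ratio of that list and stood at 1.96, 1.42 and 1.55 CPM in RNA and at 21.0, 51.9 and 20.4 CPM in ribosome-bound RNA (4.22 ± 0.41, adjusted p = 1.25e-06). EPCAM, an epithelial adhesion protein, rose from 79.3, 83.3 and 117 CPM to 600, 1099 and 667 CPM (3.08 ± 0.32). GDF3, a TGF-beta ligand, rose 8.31-fold and SFRP2, a secreted WNT modulator, 8.21-fold. Ribosome-bound library 2 held the highest value of all 4. In the list of Nodal, FGF and WNT components, 3 of 29 were higher and 10 lower, or 6 and 17 without the libraries that stood apart. A single one was higher without ribosome-bound library 3. FZD2, a WNT receptor, had the largest ratio (3.19 ± 0.43), and SMAD7, an inhibitor of TGF-beta signalling, the smallest (−2.48 ± 0.27).

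The integrated stress response acts through upstream reading frames, which hold ribosomes off the main frame in unstressed cells. Of 11 such mRNAs 4 were lower and 1, EPRS, higher, and 8 were lower without the libraries that stood apart. ATF4, its central transcription factor, stood at 490, 494 and 491 CPM in RNA and at 356, 405 and 369 CPM in ribosome-bound RNA (−0.38 ± 0.24, adjusted p = 0.171). MIEF1, which carries an upstream frame for a microprotein, had the lowest ratio (−2.65 ± 0.26). The call of EPRS was lost without RNA library 1 and without ribosome-bound library 1 or 3 (adjusted p = 0.0500, 0.0986 and 0.0747). Of 11 mRNAs of the iron response 2 were higher and 4 lower, or 5 and 4 without the libraries that stood apart. Ferritin mRNAs, held back by iron regulatory proteins at their leader, were low: FTH1 stood at 219, 232 and 130 CPM in RNA against 47.0, 82.4 and 57.4 CPM (−1.64 ± 0.30) and has 25 named copies. TFRC, the transferrin receptor, was higher, at 150, 122 and 192 CPM against 369, 616 and 381 CPM (1.56 ± 0.29).

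Of 18 m6A factors 0 were higher and 4 lower by edgeR, with ALKBH5, an m6A eraser, at −2.63 ± 0.29. At an unadjusted p under 0.05, 2 were higher, as by DESeq2, and 9 were higher and 5 lower without the libraries that stood apart. Of 30 replication genes 9 were higher and 5 lower, or 17 and 3 without ribosome-bound library 2, with PCNA, the sliding clamp, at 1.67 ± 0.26. Selenoproteins gave 9 higher and 4 lower of 16, with a median of 0.90. Large coiled-coil and giant proteins gave 5 higher and 13 lower of 30, 3 higher without ribosome-bound library 1, and 9 higher and 13 lower without the libraries that stood apart. DYNC1H1, the heavy chain of dynein, stood at −2.36 ± 0.32.

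The ratio in ESC was then set beside that in NPC for a panel of 20 genes, in a fit over all 12 libraries that tests the difference of the ratios. Over 11866 genes, 2716 (22.9%) had a higher and 2254 (19.0%) a lower ratio in NPC. In the panel 6 were higher and 2 lower. RPL3, of the large subunit, had log2 ratios of −1.60 in ESC and 0.50 in NPC, a difference of 2.10 ± 0.25 (adjusted p = 1.30e-05), and has 13 named copies. ATF4 had −0.54 and 0.76 (1.29 ± 0.21, adjusted p = 2.17e-04), and MALAT1 −2.31 and −0.90 (1.41 ± 0.31, adjusted p = 0.00214). EEF1A1 and RPLP0 were low in both states and lower in NPC, by −1.20 ± 0.35 and −1.55 ± 0.30. For SOX2 the ratios were 0.96 and 0.96 (difference 0.00 ± 0.20), and for GAS5 4.69 and 4.57 (−0.11 ± 0.32, adjusted p = 0.793). The ESC ratios of this fit differ slightly from those above because the scaling takes in all libraries.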

How the data were processed

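The values were gene counts as deposited by the authors, whole numbers without normalization, in a table of 59050 symbols. Per the submitters' processing notes, featureCounts 1.6.4, STAR 2.7.1a, Bowtie 1.2 and cutadapt 1.18 were used, with the build GRCh38 (hg38). Their roles, the annotation, strandedness and the handling of multiply matching reads were not stated there.

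Ratios were fitted with edgeR 4.0.16 in R 4.3.3 (TMM scaling, filterByExpr by assay, quasi-likelihood test with p-values adjusted by Benjamini-Hochberg, threshold 0.05) on the 6 ESC libraries. The SE was the log2 ratio divided by the square root of F. The difference between NPC and ESC was the interaction term over 12 libraries. DESeq2 1.42.0 and limma 3.58.1 served as alternatives, and the fits were tested on simulated data. Gene types came from RefSeq (GRCh38.p14): 36273 symbols matched by symbol and 1038 by synonym. A named copy is a pseudogene whose symbol carries the gene's name. A fold against 0 counts used 3 counts over the group, and intervals for 1 to 3 counts are exact binomial ones (95%). Counts carry no molecular identifiers and are not independent molecules, so floors and intervals cover counting error only. Tables and figures used Python 3.11.15, pandas 2.3.3, scipy 1.17.1 and matplotlib 3.10.9.

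The members, the 35 gene lists and the tests were chosen with earlier results of these data known. Named genes were the 10 protein-coding genes and 6 lncRNAs with the largest and the smallest ratio among those past the threshold whose assays did not overlap (at least 10 CPM ribosome-bound and 1 CPM RNA, or 20 CPM RNA), the 2 highest and 2 lowest members of each list, the markers and a panel of 20 genes. Other genes named, among them RN7SL1, RPL10, RPS26, RPL27, GDF3, SFRP2 and the miRNA precursors, were chosen after their values were seen. A few results that the rule would name are not reported here.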

Additional observations from a re-analysis of the deposited data

Results flagged for a closer look

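For 8 genes of the panel the ribosome-bound over total RNA ratio differed between NPC and ESC by the test of the difference itself (edgeR interaction term, Benjamini-Hochberg adjustment over 11866 genes). The log2 ratio was higher in NPC for NEAT1 by 3.82 (SE 0.70, adjusted p = 4.85e-04), for RPL3 by 2.10 (adjusted p = 1.30e-05), for MALAT1 by 1.41 (adjusted p = 0.00214), for ATF4 by 1.29 (adjusted p = 2.17e-04), for FTH1 by 1.16 (adjusted p = 0.0227) and for DNMT3B by 1.13 (adjusted p = 0.0264). It was lower for EEF1A1, with a difference of −1.20 (adjusted p = 0.0122), and for RPLP0, with −1.55 (adjusted p = 7.79e-04). NEAT1 had a single ribosome-bound count in ESC, so its difference depends on the prior count of the fit. The calls of FTH1 and DNMT3B were lost when some of the libraries were left out.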

How the results depend on the processing

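The counts of 4266 higher, 5427 lower, 3500 ribosome-rich and 4665 ribosome-poor genes were of 15727 tested, and they change with the number that the filter keeps. With the filter passed in each assay 10300 genes were tested. Of these 2887 were higher, 3273 lower, 2200 ribosome-rich and 2461 ribosome-poor. Scaling by total counts gave 3256 higher and 6818 lower genes, DESeq2 4513 and 5236, and limma voom 4085 and 5326. Leaving out 1 library gave 3728 to 4371 higher, 4544 to 5456 lower, 3407 to 3596 ribosome-rich and 4276 to 4622 ribosome-poor genes. The labels do not say whether same-numbered libraries belong together. Their deviations from the group means correlated at −0.093, 0.105 and 0.054, which with 3 libraries per group cannot decide it. The replicate block gave 4130 higher and 5272 lower genes. For the difference between NPC and ESC, leaving out 1 library gave 2353 to 3064 higher and 1739 to 2839 lower genes. The differences that changed sign were not past the threshold: CLK1 (−0.03 with DESeq2 and with its size factors, −0.16 to 0.17 without 1 library), SOX2 (−0.08 to 0.06), APELA (−0.82 to 0.32), GAS5 (−0.34 to 0.10) and NANOG (−3.41 to 0.95). So was the ESC ratio of PPP1R15B, an eIF2 phosphatase subunit (−0.36 to 0.04). The cause was not tested. The ribosome-bound libraries limit low genes, since 3 counts were worth 0.940 to 1.45 CPM there. Of 171 named genes past the threshold, 13 lost it without 1 library.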
